A study of Homo sapiens with 30 samples.

Results

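The SR splicing factors and the CDC-like kinases (CLK) that phosphorylate them were described at the level of messenger RNA in human cancer cell lines. The rows of SRSF1, SRSF2, SRSF3, SRSF5, SRSF6, SRSF7, CLK1, CLK2, CLK3 and CLK4 were taken by symbol, 10 of the 30373 genes in the table, and all 10 passed the filter on low values in each fit. They fall into 6 SR genes and 4 CLK genes.

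SR proteins bind exonic sequences of pre-mRNA through RNA recognition motifs and recruit the spliceosome through a tail rich in arginine and serine. Phosphorylation of that tail, by SRPK kinases mainly in the cytoplasm and by CLK kinases in the nucleus, sets where an SR protein resides and how active it is. Both families control their own messages: SR genes hold conserved poison exons whose inclusion sends the transcript to nonsense-mediated decay, and CLK1 pre-mRNA with retained introns is held in the nucleus and spliced after heat stress.

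Cells were treated with 500 nM ML-792, which the labels also call ML00754792 and which blocks the enzyme that activates SUMO, or with DMSO at 0.01% as the vehicle. The lines were HCT116 and COLO205 from colorectal cancer and MDAMB231 from breast cancer. In the 16 h experiment each of these lines received ML-792 or DMSO for 16 h (6 groups). In the 3.5 h experiment HCT116 alone was used, with ML-792 or DMSO given for 3.5 h without heat shock, or for 2 h, then 0.5 h at 43 °C and 1 h of recovery at 37 °C with the compound or vehicle still present (4 groups). Every group had 3 libraries, which the labels describe as biological triplicates, and each line stands for 1 tumour.

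The values were FPKM, fragment counts scaled to transcript length and library size, with 1 value per gene symbol, so transcripts of a gene were not separated. Per library, FPKM summed to 461422 to 524077 in the 16 h experiment. Libraries of 3.5 h summed to 608121 to 732251 with heat shock and to 552951 to 575982 without. Depth was not given. Read from the steps of low values, and relative to 1 library of HCT116 at 16 h, it was 0.831 to 1.07 in the 16 h experiment, 1.14 to 1.69 with heat shock and 1.47 to 2.24 in its controls. Libraries with and without heat shock carry separate runs of identifiers in the labels, so a difference in when or how they were prepared cannot be told apart from heat shock. The summed level of 10 colorectal epithelium markers was 1245 to 3411 FPKM in HCT116 and 3751 to 4533 FPKM in COLO205, against 802.8 to 866.2 FPKM in MDAMB231. Of these markers, KRT20 was under 1 FPKM in all 3 lines, and VIL1, CDH17 and LGALS4 were near 0 in HCT116. Summed levels of 8 mesenchymal markers were 1427 to 1724 FPKM in MDAMB231, all of them at 1 FPKM or more. The sums were 217.2 to 386.5 FPKM in HCT116, with 4 of the genes at 1 FPKM or more in all libraries. In COLO205 they were 17.3 to 29.1 FPKM. The leukocyte genes PTPRC and CD3E were near 0 in every line, whereas LYZ, chosen as a marker of the same cells, was at 714.3 to 828.4 FPKM in COLO205. In HCT116 the 8 chaperone genes of the heat shock check all rose with heat shock in DMSO, by a median of 2.99 on the log2 scale. DNAJB1, an HSP40 cochaperone, went from a mean of 128.5 to 2700 FPKM.

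Promoters of the CLK genes are shown because these 4 genes rose together after heat shock. The sequences are the 150 bases before the transcription start, on the gene's strand, from RefSeq (GRCh38.p14), with the pentamer TGACG or its reverse complement in capitals, the core of the element that CREB and ATF factors bind. CLK1 is shown for the upstream of its 2 starts (chr2:200864659-200864808, minus strand) and CLK3 for the downstream of its 2 starts (chr15:74615686-74615835, plus strand). The CLK3 start that is not shown has 0 matches to TGACG on either strand, and the CLK1 start that is not shown has 1. CLK4 lies at chr5:178627051-178627200 (minus strand) and CLK2, which has no match in this window, at chr1:155273505-155273654 (minus strand).
CLK1: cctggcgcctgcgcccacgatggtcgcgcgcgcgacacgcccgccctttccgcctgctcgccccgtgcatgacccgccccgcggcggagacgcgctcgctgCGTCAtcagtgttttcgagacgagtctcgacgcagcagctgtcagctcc
CLK4: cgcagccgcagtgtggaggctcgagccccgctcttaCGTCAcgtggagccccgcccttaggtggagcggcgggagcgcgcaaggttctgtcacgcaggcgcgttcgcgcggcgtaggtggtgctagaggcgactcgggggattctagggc
CLK3: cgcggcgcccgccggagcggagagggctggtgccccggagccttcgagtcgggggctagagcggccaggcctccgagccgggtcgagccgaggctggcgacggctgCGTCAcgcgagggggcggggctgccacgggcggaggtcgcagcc
CLK2: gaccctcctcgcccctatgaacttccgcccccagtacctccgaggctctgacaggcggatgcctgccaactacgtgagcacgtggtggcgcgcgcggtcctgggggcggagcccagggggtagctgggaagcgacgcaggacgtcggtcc

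Promoters of 9 of the 10 genes, 12 starts in all, were found in the RefSeq table, and 250 bases before each start were searched on both strands. GAANNTTC, the inverted repeat of the heat shock element, was in 0 of the 12 starts and in 5.78% of all 35116 promoters of the same length. TGACG was in 8 of the 12 starts, from 7 genes (SRSF1, SRSF3, SRSF5, SRSF7, CLK1, CLK3 and CLK4), and in 21.2% of all promoters. The full palindrome TGACGTCA, which contains TGACG, was in 0 of the 12 and in 1.65% of all promoters. GGAAG, the core of ETS sites, was in 7 of the 12 and in 65.1% of all. The windows of the CLK1 starts overlap and share their TGACG. These matches describe letters in a window.

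CLK1 rose most after heat shock among the 10 genes in vehicle-treated HCT116. Its level was 27.4, 27.3 and 26.7 FPKM in the 3 DMSO libraries without heat shock and 134.3, 159 and 166 FPKM in the 3 with it. The groups were far apart, and the means (27.1 and 153 FPKM) differed 5.65-fold, a log2 change of 2.45 ± 0.09 (SE, limma adjusted p = 3.3e-10).

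CLK4, the kinase closest in sequence to CLK1, stood at 5.8, 5.12 and 5.76 FPKM without heat shock and at 11.3, 13.6 and 12.9 FPKM with it. It rose 2.26-fold, by 1.05 ± 0.07 on the log2 scale (limma adjusted p = 1.4e-07), at a level below that of the other CLK genes in each of the 10 groups. CLK3 was between 19.26 and 19.46 FPKM in the libraries without heat shock and between 30.6 and 36.6 FPKM in those with it. Its log2 change was 0.77 ± 0.07, a 1.74-fold rise (limma adjusted p = 3e-06). CLK2 went from 18.7, 19.2 and 19.4 FPKM to 23.9, 25.3 and 28.0 FPKM. It was the smallest CLK rise, 0.41 ± 0.07 (limma adjusted p = 0.00047). None of the 4 pairs of ranges overlapped.

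All 4 CLK genes therefore rose, against 28.9% of the 12191 genes tested that were called higher in this comparison. Their median log2 change was 0.91, and that of all genes tested was 0.05. Of the other kinases that phosphorylate SR proteins (SRPK1, SRPK2, SRPK3, DYRK1A and PRPF4B), 4 were tested, and 1 rose. That gene was DYRK1A, a dual-specificity kinase of nuclear speckles, with a log2 change of 0.34 ± 0.08 (limma adjusted p = 0.0025).

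**Figure D1:**
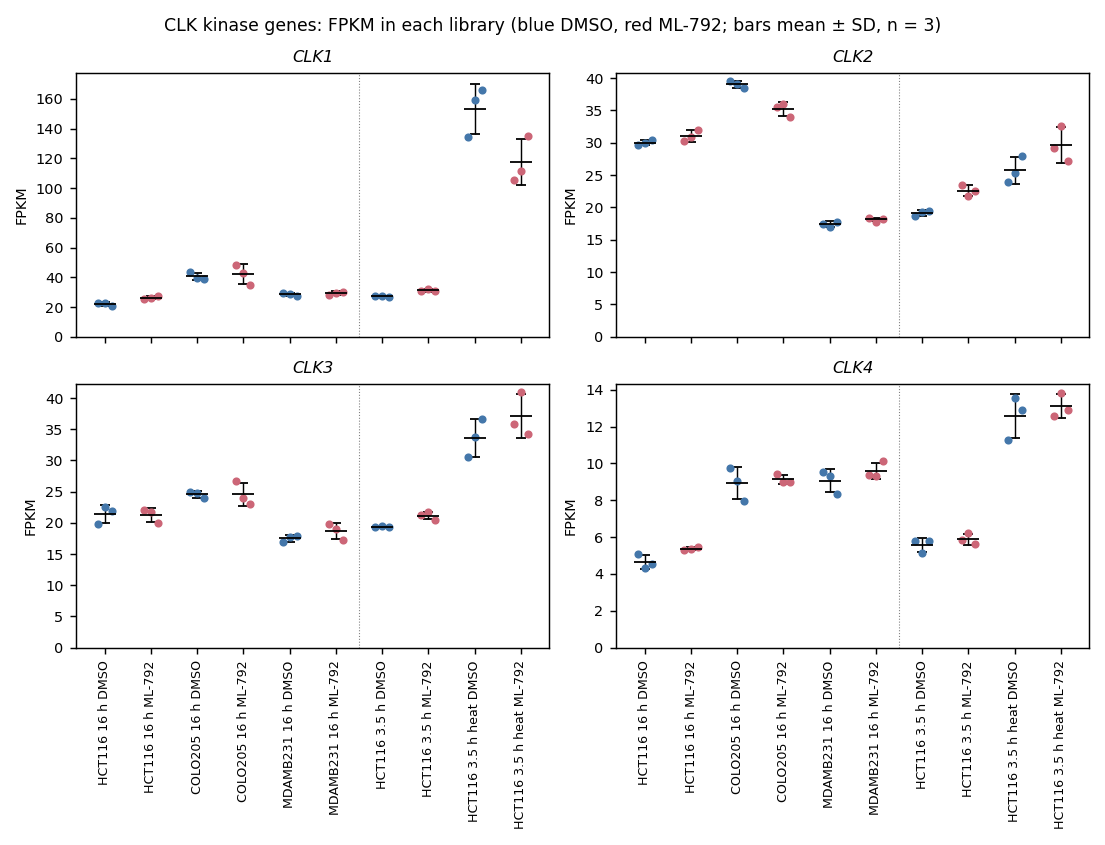
FPKM of the 4 CLK genes (vertical axes, each from 0) in the 10 groups (horizontal axis), 1 point per library with the group mean and SD (n = 3), DMSO in blue and ML-792 in red. The dotted line separates the 16 h experiment from the 3.5 h experiment. CLK1 stands at 105.6 to 166 FPKM in the 6 heat-shocked libraries and at or below 48.2 FPKM in the other 24.

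The SR genes moved less and mostly downwards in the same libraries. SRSF2, long used as the marker of nuclear speckles, was at 278, 275 and 272 FPKM without heat shock and at 195, 209 and 234 FPKM with it. The groups did not overlap, and SRSF2 fell by 22.6% (log2 change -0.37 ± 0.08, limma adjusted p = 0.0019). SRSF5 went from 159.8, 159.8 and 177 FPKM to 125, 122.5 and 129 FPKM, a fall of 24.2% (-0.40 ± 0.08, limma adjusted p = 0.0011).

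SRSF3, the shortest SR protein and an adaptor for mRNA export, fell by 15.2%, from 293 to 301 FPKM down to 232 to 268 FPKM (limma adjusted p = 0.0089). SRSF6 fell by 12.7%, from 126.1 to 128 FPKM down to 105 to 114 FPKM (limma adjusted p = 0.0055). In all, 4 of the 6 SR genes fell in DMSO, beside 20.6% of all genes tested that were called lower. SRSF1 and SRSF7 did not pass the test.

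SRSF1, the founding member of the family, varied widely between replicates. It read 141, 201 and 265 FPKM in the DMSO libraries without heat shock and 129.8, 137 and 129.6 FPKM with it. Those ranges did not overlap, yet the log2 change of -0.57 had an SE of 0.31 and was not called (limma adjusted p = 0.15; 95% interval -1.26 to 0.12). A fit of these 2 groups alone called the same change (limma adjusted p = 0.036). SRSF7, an SR protein with a zinc knuckle, was at 115, 123 and 128 FPKM without heat shock and at 134, 148 and 133 FPKM with it, a log2 difference of 0.18 ± 0.19 (limma adjusted p = 0.45).

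Calls in further lists stand beside 28.9% of all genes tested that were called higher in this comparison and 20.6% called lower. Of the further SR genes (SRSF4, SRSF8, SRSF9, SRSF10, SRSF11 and SRSF12), 5 were tested, and 1 fell, SRSF8 (log2 change -0.30 ± 0.05, limma adjusted p = 0.00047). The SR-related proteins, which carry arginine-serine stretches without belonging to the SR family, had 7 of 23 higher and 3 lower. The largest was TRA2B, a splicing activator that works with SR proteins, at 152 FPKM without and 242.6 FPKM with heat shock (0.67 ± 0.11, limma adjusted p = 0.00026). Among hnRNP and PTB proteins, which often oppose SR proteins at splice sites, 8 of 21 rose and 1 fell. HNRNPA2B1 rose by 0.52 ± 0.10 (limma adjusted p = 0.00073) and HNRNPA0 fell by 0.36 on the log2 scale (limma adjusted p = 0.00037). In the core spliceosome 12 of 27 genes rose and 1 fell, with a median of 0.18, and SNRPA, a U1 snRNP protein, had the largest rise (0.57 ± 0.08, limma adjusted p = 9.1e-05). Of 14 nonsense-mediated decay factors 2 rose and 4 fell. SMG8, a regulator of the decay kinase SMG1, rose from 21.5 to 45.0 FPKM in mean (1.03 ± 0.05, limma adjusted p = 5.7e-09).

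Cell type markers also moved with heat shock in DMSO. Of 5 colorectal epithelium markers tested 3 rose, EPCAM, KRT8 and KRT18, beside 28.9% of all genes tested. The list summed to 2297 to 2404 FPKM without and 2728 to 3306 FPKM with heat shock. Of the fibroblast list, COL1A1 rose from 1.59 to 14.6 FPKM in mean, with COL1A2, COL3A1, DCN and PDGFRB under 0.05 FPKM in these libraries. The part of these shifts in the changes of the SR and CLK genes was not tested.

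The scaling between libraries moves all these values together. Of the genes called in DMSO, 58.4% were higher as deposited, 43.7% after median-of-ratios scaling and 22.8% when every library was given the same summed FPKM, and the median log2 change of all genes went from 0.05 to -0.02 and -0.16. Under these scalings the 4 CLK rises and the 4 SR falls stayed called. CLK1 then rose by 2.36 and 2.22 and CLK2 by 0.33 and 0.18, while SRSF7, not called in either, was at 0.10 and -0.06.

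**Figure D2:**
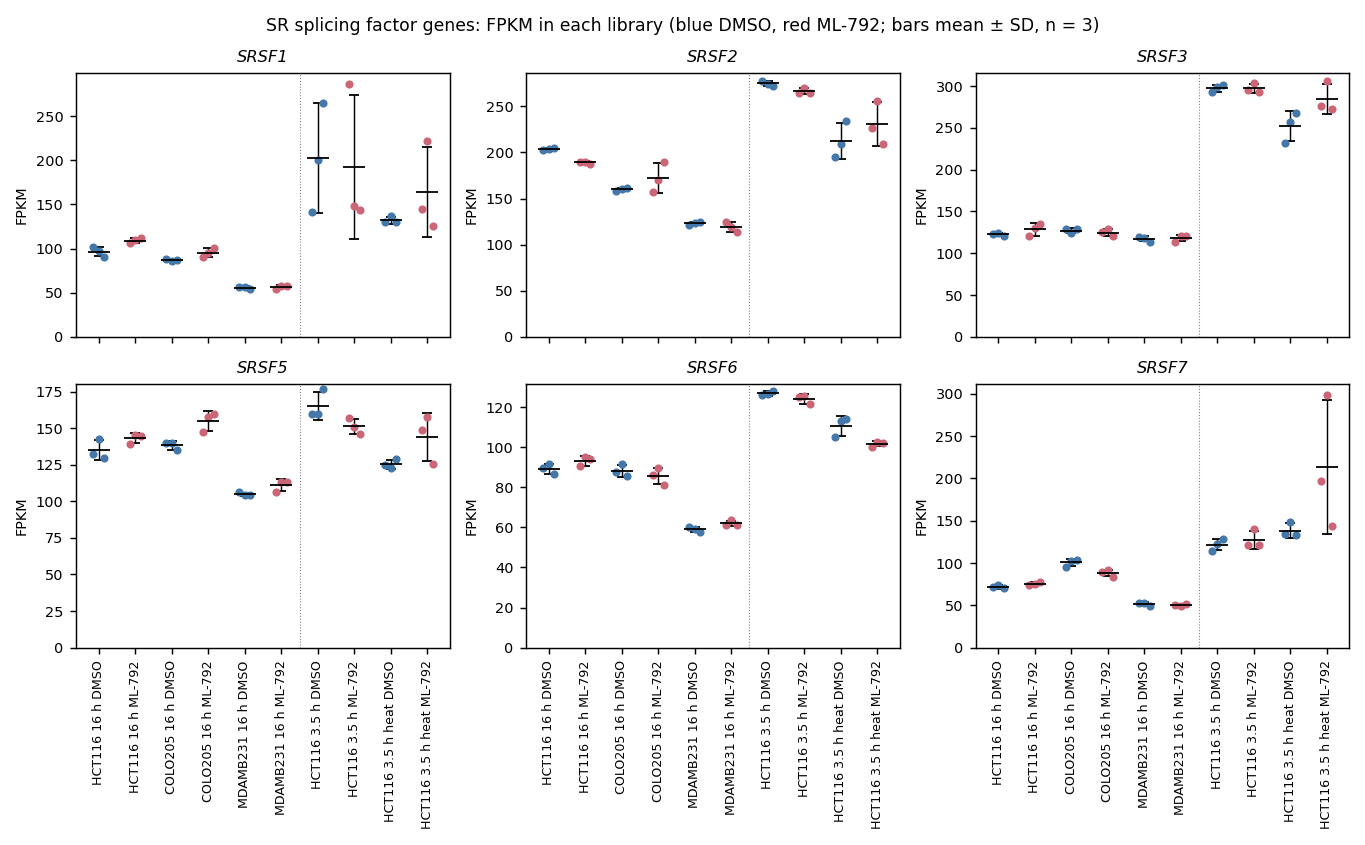
FPKM of the 6 SR genes (vertical axes, each from 0) in the 10 groups (horizontal axis), drawn as for the CLK genes with the group mean and SD (n = 3). SRSF1 spreads from 141 to 287 FPKM in the 6 libraries of 3.5 h without heat shock, while SRSF6 stays between 121.4 and 128 FPKM in the same libraries.

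Heat shock under ML-792 raised the same kinase genes. CLK1 was at 30.5, 32.0 and 30.9 FPKM without heat shock and at 105.6, 111.5 and 135 FPKM with it, a 3.77-fold rise (log2 change 1.87 ± 0.09, limma adjusted p = 5.1e-09). CLK4 rose 2.22-fold and CLK3 1.75-fold (log2 changes 1.03 and 0.78, limma adjusted p = 1.7e-07 and 2.3e-06). CLK2 rose by 0.37 ± 0.07 (limma adjusted p = 0.00067). With equal summed FPKM the CLK2 call was lost (0.09, limma adjusted p = 0.19).

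Among the SR genes, SRSF7 rose under ML-792, from 121.3, 140.1 and 121 FPKM to 197.5, 299 and 144 FPKM (0.68 ± 0.19, limma adjusted p = 0.0083). The heat-shocked libraries lay wide apart, from 144 to 299 FPKM, though above the 3 libraries without heat shock. With equal summed FPKM this call was lost (0.38, limma adjusted p = 0.083). SRSF6 fell, from 121.4 to 125.5 FPKM down to 100.2 to 102.5 FPKM (-0.28 ± 0.05, limma adjusted p = 0.00033). SRSF2 fell by 13.6% (limma adjusted p = 0.032). That call was lost without any 1 of 5 of the 6 libraries compared, each of the 3 without heat shock and heat-shocked replicates 1 and 3, with limma adjusted p up to 0.12.

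Altogether 5 of the 10 genes rose, beside 39.3% of all genes tested, and 2 fell, beside 22.3%. SRSF1, SRSF3 and SRSF5 were not called, with log2 differences of -0.20, -0.06 and -0.08. Of all called genes 63.8% were higher as deposited, 43% after median-of-ratios scaling and 24.7% with equal summed FPKM. Both of these scalings also called SRSF3 and SRSF5 lower (with equal summed FPKM -0.36 and -0.37). Heat-shocked ML-792 replicate 1 held traces of fibroblast genes, with COL1A2, COL3A1 and DCN at 0.636, 0.757 and 0.174 FPKM and at or near 0 in the other 2 libraries. Without it the CLK, SRSF7 and SRSF6 calls held. In the lists around them, 19 of 27 core spliceosome genes and 12 of 23 SR-related genes rose under ML-792, and 2 fell in each. SRSF9 was the 1 further SR gene that rose (0.48 ± 0.11, limma adjusted p = 0.0021), and SRSF10 and SRSF8 fell. DYRK1A rose again (0.30 ± 0.08, limma adjusted p = 0.004), whereas SRPK1 and PRPF4B fell by 0.24 and 0.23 on the log2 scale (limma adjusted p = 0.00091 and 0.024).

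**Figure D3:**
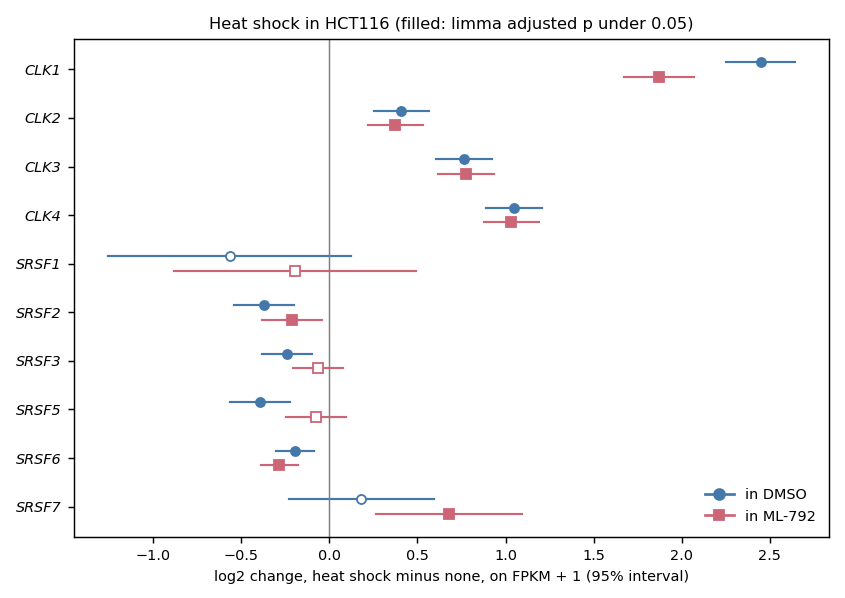
Log2 change after heat shock on FPKM + 1 (horizontal axis) for the 10 genes (vertical axis) in DMSO (blue circles) and in ML-792 (red squares), with 95% intervals and filled symbols for limma adjusted p under 0.05. The 4 CLK genes lie to the right of 0 in both arms, CLK1 at 2.45 and 1.87, and SRSF1 has the widest interval.

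The next question was whether ML-792 altered the heat shock response of these genes. CLK1 was the 1 gene of the 10 whose response differed, beside 6.41% of all genes tested. Its rise was smaller under ML-792 by 0.58 ± 0.13 on the log2 scale (limma adjusted p = 0.029, 95% interval of the difference -0.85 to -0.30). The call was lost when any 1 of the 6 libraries without heat shock or DMSO heat-shock replicate 2 was left out, with limma adjusted p from 0.067 to 0.088 and differences from -0.55 to -0.59, and with no filter on low values (0.066). For CLK2, CLK3 and CLK4 the differences were -0.03, 0.01 and -0.01, with 95% intervals of -0.25 to 0.19, -0.21 to 0.24 and -0.24 to 0.21. SRSF5 had a difference of 0.32 ± 0.11 that was not called (limma adjusted p = 0.084) and was called without ML-792 heat-shock replicate 3 (0.41, limma adjusted p = 0.0079). So was SRSF7 (0.50 ± 0.27 with all libraries, limma adjusted p = 0.22, and 0.75 without that library, limma adjusted p = 0.019). Without that library the calls among all genes rose as well, as given at the end. Of all called interactions 38.7% were positive as deposited, 19% after median-of-ratios scaling and 15.2% with equal summed FPKM.

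Set directly against each other, heat-shocked cells held less CLK1 in ML-792 than in DMSO, a difference of -23.4% (limma adjusted p = 0.0094). The highest ML-792 library (134.8 FPKM) was just above the lowest DMSO library (134.3 FPKM), so the groups overlapped. SRSF7 was higher in ML-792 by 0.56 ± 0.19 (limma adjusted p = 0.04), and its groups overlapped too. These 2 of 10 genes were called, beside 33.5% of all genes tested. The SRSF7 call was lost without any 1 of 5 of the 6 libraries, all but ML-792 replicate 3. It was also lost with no filter on low values, after median-of-ratios scaling and with equal summed FPKM. SRSF6 was called lower in ML-792 under both scalings (-0.19 in each, limma adjusted p = 0.0073 and 0.012), and SRSF3 was called higher with equal summed FPKM (0.10, limma adjusted p = 0.047). Without ML-792 replicate 2, which holds the highest SRSF7 and SRSF1 values of the heat-shocked libraries, the SRSF7 difference was 0.29 (limma adjusted p = 0.099). Leaving out DMSO replicate 3 gave 4 called genes of the 10, and leaving out ML-792 replicate 3 gave 5. The number of all genes called also moved with the library left out, as given at the end. A fit of these 2 groups alone called neither gene (limma adjusted p = 0.087 for CLK1 and 0.13 for SRSF7). CLK2 was at 24 to 28.0 FPKM in DMSO and 27.2 to 32.7 FPKM in ML-792 (limma adjusted p = 0.05), and SRSF3 at 232 to 268 FPKM and 272.6 to 306 FPKM (limma adjusted p = 0.055). Of all called genes 54.9% were higher in ML-792 as deposited, 31.9% after median-of-ratios scaling and 32.9% with equal summed FPKM.

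Without heat shock, 3.5 h of ML-792 left none of the 10 genes called by limma, where 1.21% of all genes tested were called. CLK2 alone of the 10 had an unadjusted p under 0.05, a cut at which the share of all genes was not taken. CLK1 read 27.4, 27.3 and 26.7 FPKM in DMSO and 30.5, 32.0 and 30.9 FPKM in ML-792, groups that did not overlap (0.19 ± 0.09, limma adjusted p = 0.7). CLK2 was at 18.7 to 19.4 FPKM and 21.8 to 23.4 FPKM (0.23 ± 0.07, limma adjusted p = 0.26), and CLK3 at 19.26 to 19.46 FPKM and 20.5 to 21.7 FPKM (0.12 ± 0.07, limma adjusted p = 0.89). These 3 kinase genes were called higher in a fit of the compared groups alone (limma adjusted p = 0.0043, 0.004 and 0.046), where the spread of the heat-shocked libraries did not enter. SRSF1 in ML-792 read 287, 148 and 144 FPKM, so 1 library lay far above the other 2. The difference of -0.10 had an interval of -0.79 to 0.59.

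After 16 h of ML-792, changes in HCT116 were small. SRSF1 rose from 101.4, 97.7 and 90.7 FPKM in DMSO to 105.7, 109.3 and 111.8 FPKM, groups that did not overlap (12.8%, log2 change 0.17 ± 0.05, limma adjusted p = 0.017). It was the 1 gene of the 10 called, beside 14.7% of all genes tested. Leaving out ML-792 replicate 2, ML-792 replicate 3 or DMSO replicate 3 ended the call (limma adjusted p = 0.059, 0.082 and 0.11), as did equal summed FPKM (0.068) and a fit of the compared groups alone (0.065). CLK1 was at 22.8, 22.4 and 20.9 FPKM in DMSO and at 25.2, 26.2 and 27.6 FPKM in ML-792 (0.25 ± 0.08, limma adjusted p = 0.051). It was called with a filter at 5 FPKM, in the fit of the compared groups alone and without ML-792 replicate 1 (limma adjusted p = 0.045, 0.018 and 0.047). CLK4 showed 0.18 ± 0.06 (limma adjusted p = 0.073), and was called without DMSO replicate 1 (0.23, limma adjusted p = 0.029). SRSF2 lay lower in ML-792, at 188 to 190.0 FPKM against 202 to 205 FPKM, without passing the test (-0.11 ± 0.05, limma adjusted p = 0.16). With equal summed FPKM SRSF2 was called lower (limma adjusted p = 0.026). Of all called genes 56.4% were higher as deposited, 45% after median-of-ratios scaling and 35.4% with equal summed FPKM. Between 16 h and 3.5 h the effect of ML-792 differed for none of the 10 genes by limma, beside 2.4% of all genes tested. SRSF5 and CLK2 had an unadjusted p under 0.05, a cut at which the share of all genes was not taken. The largest differences between the times were 0.27 ± 0.41 for SRSF1, 0.21 ± 0.07 for SRSF5 and -0.18 ± 0.05 for CLK2 (limma adjusted p = 0.79, 0.13 and 0.098). Of all genes called there 46.8% were positive as deposited and 35.2% with equal summed FPKM.

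In COLO205 at 16 h 4 of the 10 genes were called, near the 37% of all genes tested. Over all genes, calls were also more frequent there than in HCT116 (14.7%) or MDAMB231 (16.9%). SRSF5 rose from 139.9, 139.9 and 135 FPKM in DMSO to 147, 158 and 159.6 FPKM in ML-792 (log2 change 0.16 ± 0.04, limma adjusted p = 0.0058). SRSF7 fell from 95.8, 102.4 and 104 FPKM to 89.7, 91.2 and 83.8 FPKM (log2 change -0.19 ± 0.04, limma adjusted p = 0.0023). CLK2 fell by 9.90% from 38.5 to 39.6 FPKM down to 33.9 to 36.0 FPKM (limma adjusted p = 0.0036). For these 3 genes the groups did not overlap. SRSF1 rose by 9.44% (limma adjusted p = 0.037). Its call was lost without any 1 of 5 of the 6 libraries, all but ML-792 replicate 1, and SRSF2 was called higher without that library (0.16, limma adjusted p = 0.0078). The SRSF1 call was also lost with no filter on low values, under both other scalings and in a fit of the compared groups alone, with limma adjusted p up to 0.16 over all these settings. CLK1 in ML-792 read 48.2, 43.1 and 35.0 FPKM, spread around the DMSO values of 43.5, 39.3 and 39.1 FPKM.

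Markers moved with ML-792 in the same COLO205 libraries. Of 9 colorectal epithelium markers tested 5 rose and 1 fell, beside 2760 and 2519 of all 14251 genes tested. The list of 10 summed to 3751 to 3971 FPKM in DMSO and 4183 to 4533 FPKM in ML-792. Of 8 mesenchymal markers CAV1 rose and CD44 fell, and the list summed to 25.9 to 29.1 FPKM in DMSO and 17.3 to 21.2 FPKM in ML-792. Their part in the changes of the SR and CLK genes was not tested.

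Among the 5 other SR protein kinases, SRPK1 and DYRK1A were called higher for ML-792 in COLO205, beside 2760 of all 14251 genes tested. SRPK3 is set apart from these because of the filter. SRPK3, a kinase best known from muscle, went from 0.182 to 2.00 FPKM in mean, a log2 change of 1.34 ± 0.07. In HCT116 at 16 h its means were 0.152 FPKM with ML-792 and 0.162 FPKM with DMSO. SRPK3 passed the filter of 1 FPKM through libraries where it was high, those of COLO205 with ML-792 among them. Its call depends on that filter, and its changes are given as a description. SRPK1 rose from 24.7 to 32.8 FPKM (0.39 ± 0.07, limma adjusted p = 0.00032) and DYRK1A by 0.21 ± 0.07 (limma adjusted p = 0.034). Tested directly, the ML-792 effect on SRPK1 was larger in COLO205 than in HCT116 (0.45 ± 0.10, limma adjusted p = 0.0041) and than in MDAMB231 (limma adjusted p = 0.0011). For SRPK3 the difference between COLO205 and HCT116 was 1.35 ± 0.10. For DYRK1A the difference between COLO205 and HCT116 was 0.02 ± 0.10 and was not called (limma adjusted p = 0.92), nor was that between MDAMB231 and COLO205 (-0.21 ± 0.10, limma adjusted p = 0.16). Core spliceosome genes had 11 of 27 lower and 2 higher in COLO205, beside 17.7% of all genes tested that were called lower, among them SF3A1, a U2 snRNP protein (-0.25 ± 0.05, limma adjusted p = 0.00036). The lines were also tested against each other. Between COLO205 and HCT116 the effect was lower in COLO205 for 2 of these 27 genes, SNRPC and PRPF3. Of all genes tested 19.4% were called there in either direction. Between MDAMB231 and COLO205 the effect was higher in MDAMB231 for 1, PRPF19, beside 26% of all genes called in either direction.

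In MDAMB231 none of the 10 genes was called by limma, beside 16.9% of all genes tested. None had an unadjusted p under 0.05, a cut at which the share of all genes was not taken. The log2 differences ran from -0.05 (SRSF2) to 0.09 (CLK3). SRSF5, at 104.2 to 106.1 FPKM in DMSO and 106.1 to 113.5 FPKM in ML-792, showed 0.08 with a 95% interval of -0.01 to 0.17.

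**Figure D4:**
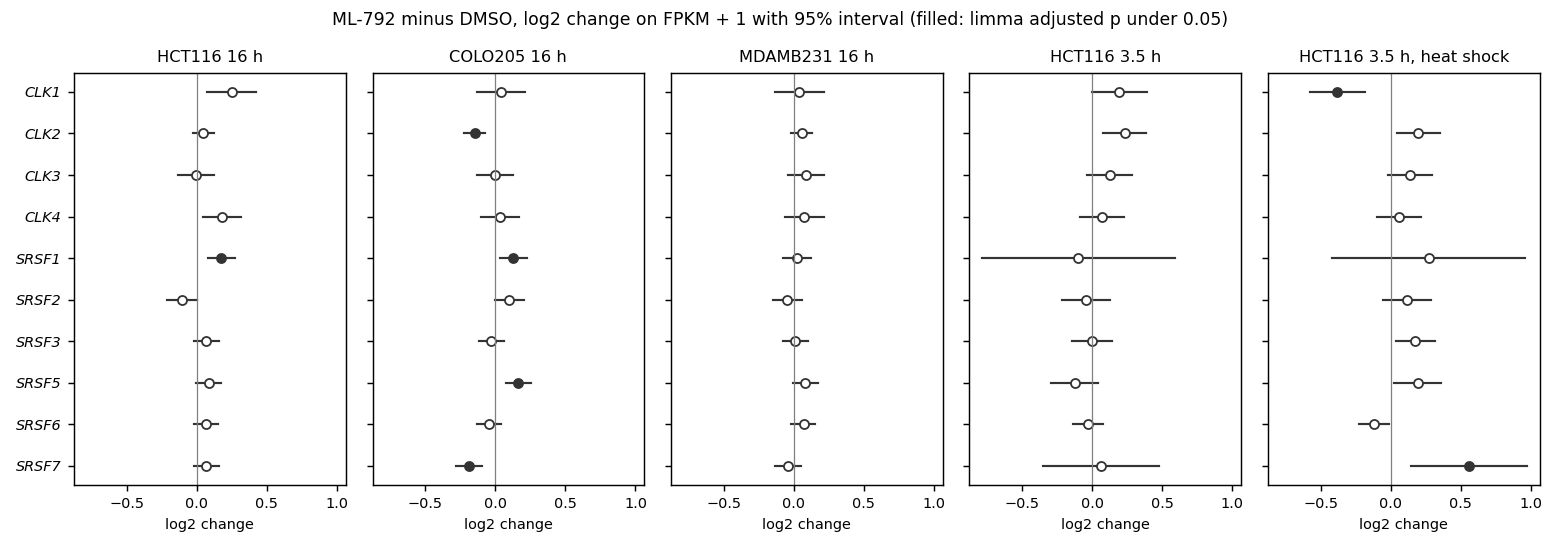
Log2 difference between ML-792 and DMSO on FPKM + 1 (horizontal axes) for the 10 genes (vertical axis) in the 5 comparisons, with 95% intervals and filled points for limma adjusted p under 0.05. Most points lie within 0.25 of 0, and the wide intervals of SRSF1 and SRSF7 belong to the 3.5 h experiment.

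Direct tests between the lines gave 3 calls among the 10 genes for COLO205 against HCT116, beside 19.4% of all genes tested. The ML-792 effect was lower in COLO205 for SRSF7 (difference -0.26 ± 0.06, limma adjusted p = 0.0068) and CLK2 (-0.19 ± 0.05, limma adjusted p = 0.012). With equal summed FPKM the CLK2 call was lost (-0.17, limma adjusted p = 0.052). It was higher for SRSF2 (0.21 ± 0.07, limma adjusted p = 0.048), a call lost without any 1 of 11 of the 12 libraries, all but COLO205 ML-792 replicate 1, and also with a pseudocount of 0.1, no filter, limma without its trend and robust options or a fit of the compared groups alone (limma adjusted p up to 0.1). Without COLO205 ML-792 replicate 1 the CLK1 effect was called lower in COLO205 (-0.31, limma adjusted p = 0.038). MDAMB231 differed from COLO205 for CLK2 alone of the 10 (0.20 ± 0.05, limma adjusted p = 0.0062), beside 26% of all genes tested. It differed from HCT116 for 0 of the 10 by limma, beside 10.8%. SRSF1 had an unadjusted limma p of 0.034 there, without a share of all genes at that cut.

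Between vehicle-treated lines the log2 differences of these genes reached -1.12, whereas those between ML-792 and DMSO at 16 h were at most 0.25 in size. COLO205 held more CLK mRNA than HCT116. CLK1 was at 22.8, 22.4 and 20.9 FPKM in HCT116 and 43.5, 39.3 and 39.1 FPKM in COLO205, and CLK4 at 5.06, 4.31 and 4.54 FPKM and 9.74, 9.07 and 7.98 FPKM. The log2 differences were 0.85 ± 0.08 and 0.82 ± 0.06 (limma adjusted p = 1.9e-08 and 1.3e-09), and no ranges overlapped. CLK2 and CLK3 were higher by 0.37 ± 0.04 and 0.20 ± 0.06 and SRSF7 by 0.48 ± 0.04. SRSF2 and SRSF1 were lower, with differences of -21.4% and -9.77% (limma adjusted p = 3.7e-06 and 0.0071). That made 7 of 10 genes called, beside 84.9% of all genes tested. With median-of-ratios scaling SRSF1 was no longer called (-0.06, limma adjusted p = 0.26), and SRSF3 and SRSF5 were called higher.

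MDAMB231 had the lowest mean of each SR gene in either arm at 16 h. SRSF1 was at 53.9 to 56.9 FPKM in its DMSO libraries, a difference of -42.2% from HCT116, and SRSF7 at 49.3 to 53.3 FPKM, a difference of -48.6% from COLO205. Against HCT116, 9 of the 10 genes were called, 7 lower and CLK1 and CLK4 higher, beside 83.6% of all genes tested. Of all 14251 genes tested there, 6484 were called lower and 5425 higher. Only SRSF3 was not called (-0.06 ± 0.04, limma adjusted p = 0.17), and its difference was 0.06 and 0.05 under the other scalings. Against COLO205, 9 were lower, beside 6338 of all 14251 genes tested that were called lower. Called in either direction were 86.4% of all genes tested. CLK2 had the largest difference there, at 17 to 17.8 FPKM against 38.5 to 39.6 FPKM (-1.12 ± 0.04, limma adjusted p = 1e-15). CLK4 did not differ by the test, with an interval of -0.12 to 0.16. Of the 9, SRSF3 differed least, at 113.5 to 119.5 FPKM against 124.2 to 128.7 FPKM (-0.12 ± 0.04, limma adjusted p = 0.017). It had no call or direction left with equal summed FPKM (0.004, limma adjusted p = 0.93). The SRSF3 call was also lost with median-of-ratios scaling and without COLO205 DMSO replicate 1 or MDAMB231 DMSO replicate 3. In MDAMB231, 24 of 27 core spliceosome genes and 20 of 21 hnRNP and PTB genes were also lower than in HCT116, beside 6484 of all 14251. The median log2 difference of all genes in that comparison was -0.066 as deposited. It was 0.015 after median-of-ratios scaling and 0.008 with equal summed FPKM.

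Across the 10 groups the levels of SRSF1, SRSF2, SRSF3, SRSF6 and SRSF7 had the same 4 groups on top, those of the 3.5 h experiment, and MDAMB231 at the bottom. For SRSF5, MDAMB231 was also last, and COLO205 in ML-792 stood among the top 4 groups. Neighbours in the order often overlapped. For SRSF1 the 4 groups of 3.5 h overlapped in a chain. For CLK1 the order ran from heat-shocked HCT116 in DMSO (153 FPKM in mean) and in ML-792 (117 FPKM) through COLO205 in ML-792 and DMSO (42.1 and 40.6 FPKM) to HCT116 in DMSO at 16 h (22.0 FPKM). The heat-shocked groups overlapped with each other and not with COLO205. CLK2 had another order, with COLO205 in DMSO first (39.0 FPKM) and MDAMB231 in DMSO last (17.4 FPKM), and the heat-shocked HCT116 groups in the middle. CLK3 and CLK4 were highest in heat-shocked HCT116 with ML-792 (37.1 and 13.1 FPKM), and there the 2 heat-shocked groups overlapped for each gene.

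Between the vehicle controls of HCT116 in the 2 experiments, SRSF3 was at 297 FPKM at 3.5 h and 122.6 FPKM at 16 h, a ratio of 2.43, and SRSF1 had a ratio of 2.10. The other SR genes had ratios of 1.22 to 1.69, and CLK2 one of 0.637. The median ratio of all genes was 0.979. Time and experiment cannot be told apart here.

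Over the 10 group means of log2(FPKM + 1), SRSF1, SRSF2 and SRSF6 went together with Pearson's r of 0.969 to 0.981, and CLK1 with CLK3 (0.923) and CLK4 (0.814). CLK4 had r of -0.378 to 0.289 with the SR genes, and CLK1 with CLK2 had 0.227. These 10 points come from 3 lines in 2 experiments and are a description. Of 14456 genes, those most like CLK1 in this pattern were ZNF410 (0.970), CRYAB (0.967) and RBM23 (0.962). Those most like CLK3 were KLHL25 (0.995), FAM209B (0.987) and TSHZ1 (0.976), and those most like CLK4 were ZNF697 (0.979), TRIM16 (0.963) and ABTB2 (0.959). CLK2 was closest to DGAT1 (0.975), IDH3G (0.972) and ZNF213 (0.970). SELRC1 was among the nearest 3 of SRSF1 (0.985), SRSF2 (0.989) and SRSF6 (0.988). SRSF1 was also near ATE1 (0.990) and GRIN2B (0.987), SRSF2 near PDPR (0.990) and SHPRH (0.989), and SRSF6 near FOPNL (0.990) and YTHDF3 (0.986). SRSF3 was nearest to KCTD5 (0.986), MRPL49 (0.986) and USP15 (0.985), SRSF5 to IQCC (0.955), CTCF (0.950) and ZBED4 (0.948), and SRSF7 to PSMC5 (0.992), NMT1 (0.990) and C9orf78 (0.988).

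SRSF1 and SRSF7 scattered between replicates of the 3.5 h experiment far more than most genes of like level. Among 2918 genes with a mean of 30 FPKM or more, the pooled SD of log2 values within groups was 0.419 for SRSF1, rank 18 from the widest, and 0.276 for SRSF7, rank 50. The median was 0.091, and SRSF6 had 0.0368, rank 2831. In the 16 h experiment the SD of SRSF1 was 0.0548 and that of SRSF7 0.0495, below the median of 0.0646 over 2501 genes. The high SRSF1 libraries were DMSO replicate 3 (265 FPKM) and ML-792 replicate 1 (287 FPKM) without heat shock, and ML-792 replicate 2 with heat shock (222 FPKM). SRSF7 was high in the last of these (299 FPKM) and not in the first (128 FPKM) or the second (121.3 FPKM).

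**Figure D5:**
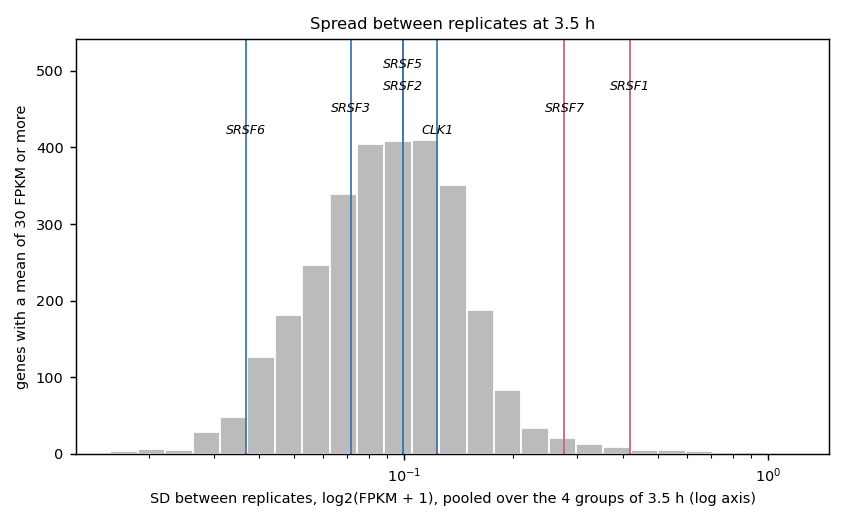
Number of genes (vertical axis) by SD between replicates of log2(FPKM + 1), pooled over the 4 groups of 3.5 h (horizontal log axis), for genes with a mean of 30 FPKM or more. Vertical lines mark 7 of the 10 genes, with SRSF1 at 0.419 and SRSF7 at 0.276 in the right tail and SRSF6 at 0.0368 in the left. CLK2, CLK3 and CLK4 are below that level.

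Gene models bear on what 1 value per gene can hold. In GENCODE 29, 9 of the 10 genes (90% against 42.5% of 12210 protein-coding genes at 1 FPKM or more in 3 libraries) have an annotated transcript subject to nonsense-mediated decay, CLK2 being the one without. A retained-intron transcript is annotated for 8 (80% against 57.6%), all but SRSF6 and CLK2. CLK1 has 15 transcripts, of which 4 are protein-coding, 2 are decay targets and 8 retain an intron, and SRSF7 has 12, of which 6 are decay targets. The genes have a median of 11.5 transcripts against 8 for the set, and the deposited values do not say which transcript changed.

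Some values are less certain because genes overlap on the opposite strand, and whether the counting used strand is not stated. SRSF2 overlaps MFSD11, CLK2 overlaps HCN3 and CLK3 overlaps EDC3. GENCODE 29 also places a protein-coding gene known only by a clone name over SRSF1 on the same strand. After heat shock in DMSO MFSD11 rose by 0.31 ± 0.08 (limma adjusted p = 0.0053) while SRSF2 fell. HCN3, at 1.79 FPKM without and 1.67 FPKM with heat shock, was not called (-0.07 ± 0.06), and EDC3 rose by 0.14 ± 0.05 (limma adjusted p = 0.029), less than the 0.77 of CLK3. With ML-792 in COLO205 at 16 h HCN3 rose from 3.81 to 6.03 FPKM in mean (0.54 ± 0.06, limma adjusted p = 2.2e-06) while CLK2 fell, and the effect on HCN3 was higher in COLO205 than in HCT116 by 0.53 ± 0.09 (limma adjusted p = 0.00031).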

How the data were processed

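Polyadenylated RNA of 30 libraries (10 groups of 3) was measured with stranded paired-end sequencing, per the labels' protocols. The authors deposited 1 table of 30373 gene symbols with FPKM values, a unit taken from the values, since the header names none. The submitters' processing notes name DESeq2 1.10.1 with no role. The aligner, genome build, annotation and absolute depth are not given in the sources.

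limma 3.58.1 in R 4.3.3 was fitted to log2(FPKM + 1), with trend and robust set in eBayes. That scale understates the changes of low genes. A gene entered a fit if 3 or more of its libraries had at least 1 FPKM. Each group had its own mean, in a fit of 18 libraries for 16 h (14251 genes), another of 12 for 3.5 h (12191 genes) and one more of 12 from HCT116 without heat shock (12462 genes). P-values of each of the 15 comparisons were adjusted after Benjamini and Hochberg across every gene fitted, and calls were made under 0.05. All 10 members are named. From each other list the called genes with the largest changes are named, up to 4 in a comparison. Likeness is Pearson's r over 10 group means. The members, lists and tests were chosen with earlier results of these data known. The fit was tested on simulated data. The alternatives were pseudocounts of 0.1 and 5, no filter, a filter at 5 FPKM, 2 other scalings, eBayes without trend and robust, a fit of the compared groups alone and leaving out each library in turn. HNRNPDL and HNRNPLL were matched through RefSeq synonyms. Gene models came from GENCODE 29. No 2 libraries held identical values.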

Additional observations from a re-analysis of the deposited data

Results flagged for a closer look

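In 5 results, all given above with their tests, the response to 1 treatment differed between conditions or cell lines by an interaction contrast in limma. The CLK1 response to heat shock was smaller under ML-792 than in DMSO, a log2 difference of -0.58 (-0.577 before rounding, 95% interval -0.85 to -0.30). The effect of ML-792 at 16 h differed between COLO205 and HCT116 for SRSF2 (0.21), SRSF7 (-0.26) and CLK2 (-0.19). Under the alternatives the SRSF2 call was lost in 15 of 20 and the CLK1 call in 8 of 19. The CLK2 call against HCT116 was lost in 1 of 20, with equal summed FPKM (-0.17, limma adjusted p = 0.052). The SRSF7 call was lost in 0 of 20. CLK2 also differed between MDAMB231 and COLO205 (0.20). Of the ML-792 effects behind the SRSF2 difference, -0.11 in HCT116 and 0.10 in COLO205, neither was called. The cause of these differences was not tested.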

How the results depend on the processing

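No paired analysis was possible because replicate numbers are absent from the labels, so libraries cannot be matched across groups. Of 2380 values of single genes under the alternatives, 2263 kept their direction and side of the threshold or, where not called, their value within its error. Another 59 lost a call, 34 gained one, 23 uncalled values moved and 1 reversed, SRSF3 in MDAMB231 against COLO205 with equal summed FPKM (0.004). For the filter at 5 FPKM, the share of all genes called is not set beside the members. There 2 members were called for ML-792 at 16 h in HCT116 and 4 for ML-792 in heat-shocked cells. With no filter, 1 member was called in the latter, and 0 members and 211 genes for the interaction of heat shock with ML-792, against 781 genes in the main analysis. Equal summed FPKM left 250 genes for that interaction. Fits of the compared groups alone called 1316 genes at 16 h in HCT116 (2101 in the main analysis), 728 genes and 3 members at 3.5 h without heat shock (147 and 0), and 255 genes and 0 members for ML-792 in heat-shocked cells (4083 and 2). The cause of these differences was not tested.

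Leaving out 1 library at a time gave 0 to 2 members and 1180 to 2822 genes called at 16 h in HCT116, the fewest genes without ML-792 replicates 2 and 3 and DMSO replicate 3. It gave 83 to 93 genes at 3.5 h without heat shock, fewer without any of the 6 libraries. For ML-792 in heat-shocked cells it gave 1 to 5 members and 1629 to 5011 genes, with 1629 without DMSO replicate 2 and 2317 without ML-792 replicate 2. The interaction had 0 to 3 members and 77 to 2520 genes, with 1887 genes without DMSO heat-shock replicate 3, 2520 without ML-792 heat-shock replicate 3, 507 without ML-792 heat-shock replicate 2, and 77 to 107 without DMSO heat-shock replicate 2 or any library without heat shock. For 16 h against 3.5 h, 156 to 808 genes were called, 808 without ML-792 replicate 1 and 614 without DMSO replicate 1 of 16 h, and 156 to 186 without 8 of the other 10 libraries. MDAMB231 against COLO205 had 1 to 2 members, 2 without COLO205 ML-792 replicate 1 (SRSF2 added) or COLO205 DMSO replicate 1 (SRSF7 added). Where 1 library of a group is left out, the spread of the remaining libraries of the fit is assumed for that group. Depth is unknown in absolute terms, so no interval for counting error can be given, and SRSF1 and SRSF7 at 3.5 h are limited by their spread between replicates.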
